A study of Caenorhabditis elegans with 2 samples.

Results

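The regions described here are the weaker peaks of ZTF-18 binding at promoters that face a single direction in the nematode Caenorhabditis elegans. They are 715 of the 2465 reproducible peaks deposited for the experiment (29.0%, exact Clopper-Pearson 95% interval 27.2 to 30.8). A peak was taken when its signal in the pooled list was below 720, its summit lay more than 150 bp from any tRNA gene, and the summit fell from 1000 bp upstream to 200 bp downstream of the 5′ end of protein-coding genes that were all on the same strand. The peaks were thus chosen by their pooled signal and their position, so the values of both are a description, with no test. The authors scored each peak against a control, and the sources used here do not give the scale of that score, called signal below.

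The study mapped where tagged ZTF-18 sat on DNA by chromatin immunoprecipitation and sequencing (ChIP-seq), in which sonicated chromatin is pulled down with an antibody. The animals were young adult hermaphrodites of strain OP496, which stably expresses ZTF-18 with GFP and FLAG fused to its C-terminal end, and they were taken 64 hours after synchronization as starved L1 larvae hatched from bleached adults. An antibody to GFP was used on whole animals, in 2 biological replicates. With 1 group and no other condition, nothing can be tested between groups. In whole animals, binding in few cells and weak binding in many cells cannot be told apart.

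ZTF proteins are zinc finger proteins of C. elegans, a class that often binds DNA directly and regulates genes from their promoters. A promoter is the stretch before a gene where transcription starts. When neighbouring genes point away from each other, a site between them can belong to either gene, whereas a site before a gene on a single strand has a clearer partner. In C. elegans many transcripts receive a spliced leader, so the annotated 5′ end of a gene can lie downstream of the place where transcription begins. Some genes also lie in operons, where a single upstream promoter serves several genes in a row.

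The sequences at the summits show what these sites look like. Each run below covers the 50 bp on either side of a summit, read 5′ to 3′ on the strand of the gene, from the WBcel235 genome, the same build as ce11. None overlaps an annotated exon. The first set holds well-ranked peaks in both replicates that carry 1 or more of the short words described later, and the capitals mark those words on either strand. The words are GAGAGA (word A), then AGAGAC (word B), then GAGCGC (word C), then GCACAC (word D), then GCGCCA (word E), and the longer run AGACGCAGA is marked as well. The windows are those of imb-2 (chrII:14365381-14365481, plus strand), atg-16.2 (chrII:6453520-6453620, minus strand), scyl-1 (chrV:13041813-13041913, minus strand), npr-15 (chrIII:3695542-3695642, minus strand), cox-5A (chrIII:12905165-12905265, plus strand), lin-9 (chrIII:8904244-8904344, minus strand) and sym-4 (chrX:14169823-14169923, minus strand).
imb-2: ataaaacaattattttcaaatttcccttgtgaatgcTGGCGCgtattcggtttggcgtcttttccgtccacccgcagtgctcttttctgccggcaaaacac
atg-16.2: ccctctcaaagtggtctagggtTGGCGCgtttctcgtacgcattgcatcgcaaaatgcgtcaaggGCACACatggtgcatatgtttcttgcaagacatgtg
scyl-1: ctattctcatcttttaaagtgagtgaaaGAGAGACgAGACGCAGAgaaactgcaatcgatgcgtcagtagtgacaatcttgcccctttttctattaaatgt
npr-15: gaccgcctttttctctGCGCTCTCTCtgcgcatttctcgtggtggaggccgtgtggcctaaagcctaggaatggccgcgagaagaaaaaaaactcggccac
cox-5A: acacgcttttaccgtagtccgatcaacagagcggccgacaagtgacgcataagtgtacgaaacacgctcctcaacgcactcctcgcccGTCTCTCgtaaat
lin-9: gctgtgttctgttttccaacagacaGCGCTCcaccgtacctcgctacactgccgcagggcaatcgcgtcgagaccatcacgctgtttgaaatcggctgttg
sym-4: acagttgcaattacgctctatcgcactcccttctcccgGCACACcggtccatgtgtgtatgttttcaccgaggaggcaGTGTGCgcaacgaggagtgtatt

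A second set shows peaks that share long runs with each other. Capitals mark every run of 20 bases or more that also occurs, on either strand, in the summit window of another of the 715 peaks. The windows are those of eel-1 (chrIV:3050436-3050536, minus strand), Y62F5A.12 (chrII:11534967-11535067, minus strand), ttll-4 (chrIII:10123769-10123869, plus strand), oma-2 (chrV:8028969-8029069, plus strand) and inpp-4B (chrIII:10266966-10267066, minus strand).
eel-1: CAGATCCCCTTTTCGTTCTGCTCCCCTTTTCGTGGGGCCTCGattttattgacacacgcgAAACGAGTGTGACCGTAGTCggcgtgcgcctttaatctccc
Y62F5A.12: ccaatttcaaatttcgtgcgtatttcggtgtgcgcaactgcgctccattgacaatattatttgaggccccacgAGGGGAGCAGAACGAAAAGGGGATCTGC
ttll-4: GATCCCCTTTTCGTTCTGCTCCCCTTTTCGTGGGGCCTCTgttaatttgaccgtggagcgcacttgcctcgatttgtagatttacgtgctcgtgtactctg
oma-2: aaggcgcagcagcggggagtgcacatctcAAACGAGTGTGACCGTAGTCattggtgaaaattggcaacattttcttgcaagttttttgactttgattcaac
inpp-4B: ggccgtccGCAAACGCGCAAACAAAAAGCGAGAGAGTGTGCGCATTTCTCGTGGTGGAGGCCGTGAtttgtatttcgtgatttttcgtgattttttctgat

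Pooled signal ran from 93.7 to 705 across the 715 peaks, with a median of 137 and quartiles of 111 and 200. Their ranks in the whole list ran from 253 to 2463. The strongest peak lay 179 bp upstream of atg-16.2, an autophagy gene, with a pooled signal of 705. Its signal was 394 in replicate 1 and 320 in replicate 2. The peak at scyl-1, a gene for a protein kinase domain protein, had a pooled signal of 705 as well, with 404 in replicate 1 and 308 in replicate 2. The peak 289 bp upstream of ppfr-1, which encodes a regulatory subunit of protein phosphatase 4, followed at 691, with 430 and 274. These were the peaks just under the limit of 720. Just above it were F08A8.8 at 724, ccch-3 at 741 and C34D10.1 at 751, so the limit falls in a continuous range of signal. At the other end were eif-3.J, a translation initiation factor subunit gene, at 93.8, snt-4, which encodes a C2 domain protein, at 93.8, and the annexin gene nex-2 at 93.7. Pooled signal was close to the sum of the replicate values. Over 603 peaks with no stronger summit within 500 bp and a value in both replicates, the ratio of pooled signal to that sum had a median of 0.989, with quartiles of 0.955 and 1.02. Over 109 peaks beside a stronger summit the median was 0.934, with quartiles of 0.793 and 1.02.

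The replicates gave the peaks at the same places. A peak in the deposited list of replicate 1 overlapped 714 of the 715 by at least 1 bp, and a peak of replicate 2 overlapped 713. The distance between the summits of both replicates had a median of 28 bp over 712 peaks, and it was at most 50 bp for 497 (69.8%) and at most 100 bp for 645 (90.6%). Signal was higher in replicate 1 for 571 peaks and in replicate 2 for 141, and the ratio of replicate 1 to replicate 2 had a median of 1.33, with quartiles of 1.07 and 1.72. The median signal was 83.8 in replicate 1 and 60.6 in replicate 2. Read depth is unknown, so a difference in scale between the lists and a difference in binding cannot be told apart. Both replicates feed the pooled signal that chose the peaks, so their overlap is not independent evidence.

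**Figure D1:**
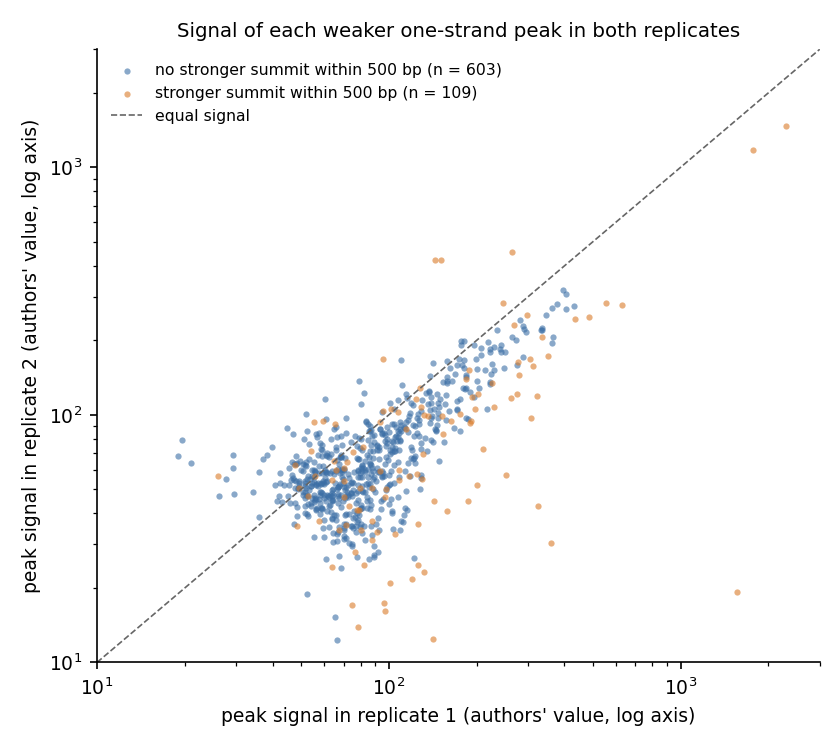
Signal of each peak in replicate 1 (x axis) and replicate 2 (y axis), both the authors' values on log axes, for the peaks overlapped in both replicates; the dashed line marks equal signal. Most points lie below the line, with a median ratio of 1.33, and the points far out on the right have a stronger summit within 500 bp.

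Most of the peaks were also strong in each replicate's own list. Of the 715 peaks, 511 (71.5%, exact interval 68 to 74.8) were overlapped by one of the 2465 strongest peaks of each replicate, called a top peak here, against 76.9% of all nuclear peaks in the reproducible list. A further 184 had a top peak in a single replicate and 20 in neither. Pooled signal follows the replicate signals, so a share that falls with it is fixed by the ordering, and the following values only show how far down the list the overlap reaches. When the peaks were ordered by pooled signal and split into 5 groups of 143, the share with a top peak in both was 99.3% in the first 2 groups (signal 157 to 705), 85.3% in the third (124 to 157), 49.7% in the fourth (107 to 124) and 23.8% in the last (93.7 to 107). Median signal in the last group was 57.2 in replicate 1 and 45 in replicate 2, against 198 and 143 in the first.

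**Figure D2:**
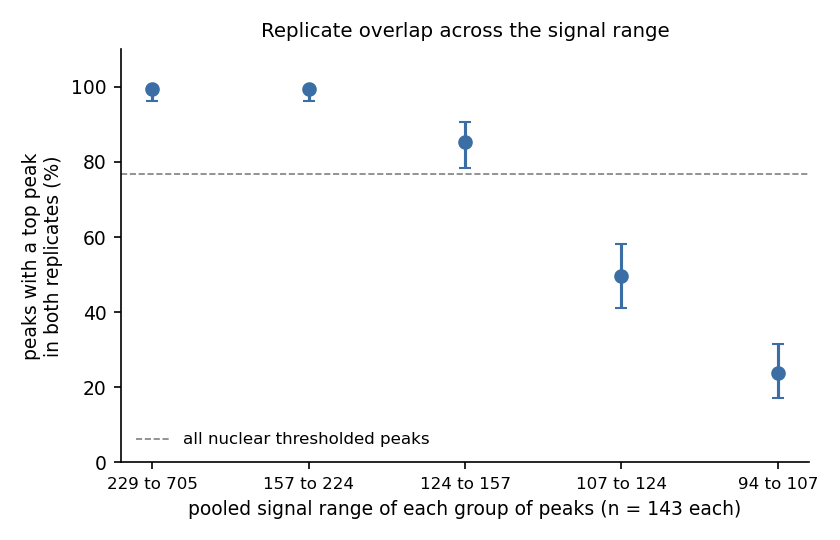
Share of peaks with a top peak in both replicates (y axis, percent) for 5 groups of 143 peaks ordered by pooled signal (x axis, signal range of each group); bars are exact 95% intervals and the dashed line is the share of all nuclear reproducible peaks. The share runs from 99.3% to 23.8%, a fall that the ordering by pooled signal itself brings.

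Some of the peaks stand beside stronger ones. A stronger summit of the reproducible list lay within 500 bp of 110 peaks (15.4%), and 67 entries repeated the interval of another entry with a different summit. Intervals ran from 128 to 1370 bp, and 463 (64.8%) were exactly 510 bp long. At such places the replicate peak that overlaps can be the neighbour's. At hcp-3, the gene for the centromeric histone CENP-A, the pooled signal was 233 while the overlapping peaks had 2294 in replicate 1 and 1472 in replicate 2. At nduf-11, a complex I subunit gene, it was 412 against 1767 and 1172. At smr-1, a gene for a Tudor domain protein, it was 265 against 555 and 284. At W03F8.4, annotated as a subunit of the EKC/KEOPS complex, the pooled signal of 664 was above both replicate values, 630 and 278. These 4 had the best ranks in both replicates, and all stood within 500 bp of a stronger summit. Among the 605 peaks with no such neighbour, the highest signal was 430 in replicate 1 and 320 in replicate 2, and 66.6% had a top peak in both.

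With those set aside, 6 peaks had the best ranks in both replicates. At imb-2, an importin gene, the summit lay 270 bp upstream of the 5′ end and the signal was 404 in replicate 1 and 268 in replicate 2. At cox-5B, a cytochrome c oxidase subunit gene, it lay 13 bp upstream, with 363 and 271. At F36A2.7, annotated as another cytochrome c oxidase subunit, it lay 281 bp upstream, with 378 and 281. The others were those of atg-16.2, scyl-1 and ppfr-1, and replicate 1 was the higher in each of the 6.

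The summits lay mostly before the genes. The nearest annotated 5′ end was a median of 268 bp downstream of the summit, with quartiles of 124 and 457 bp, and 642 summits (89.8%) were upstream of it or on it. From 100 to 400 bp upstream there were 338 (47.3%), and 159 (22.2%) lay more than 500 bp upstream. The window sets the outer limits of these distances. The 134 stronger peaks at promoters on a single strand had a median of 175.5 bp upstream, and 84.3% lay within 500 bp upstream, against 67.6% of the weaker ones. The 364 weaker peaks between promoters on both strands had a median of 134 bp upstream, where a nearby 5′ end on either side makes a short distance likelier by construction. No test was made, since peaks of the same samples are not replicates.

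**Figure D3:**
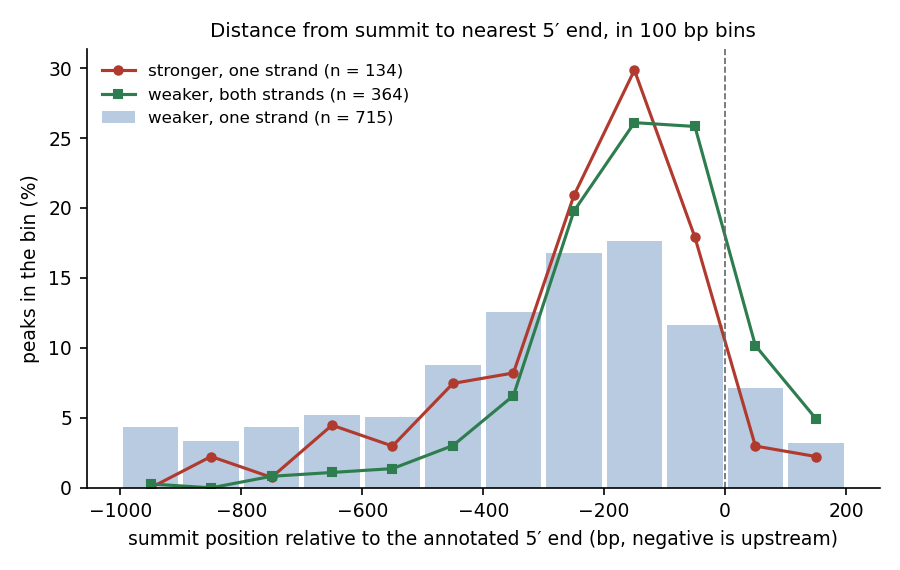
Position of the summit relative to the nearest annotated 5′ end (x axis, bp, negative is upstream) as the share of peaks per 100 bp bin (y axis, percent), for the 715 weaker peaks at single-strand promoters (bars), the 134 stronger peaks at such promoters (circles) and the 364 weaker peaks between promoters on both strands (squares). The bars spread further upstream than both lines, with a median of 268 bp against 175.5 and 134 bp.

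Most peaks had a single gene. Of the 715, 691 had 1 gene whose window held the summit, 22 had 2 and 2 had 3. The next gene upstream lay on the same strand for 466 peaks (65.2%), with a median gap of 589.5 bp between the genes, and on the other strand for 249, with a median gap of 2849 bp. Summits that also fell in the window of a gene on the other strand were left out by the rule. These counts and gaps are therefore partly set by the choice of peaks, and no share over all genes is given beside them. For 204 peaks (28.5%) the upstream gene was on the same strand and ended less than 500 bp away. The summit lay inside another protein-coding gene for 120 peaks (16.8%). The word TTTCAG is the usual end of an intron in C. elegans and so a mark of places where a spliced leader can be joined. It lay wholly within the 10 bp directly before the annotated 5′ end of 169 of 687 genes with one of these peaks (24.6%, exact interval 21.4 to 28.0). Over all 19973 protein-coding genes it was 13.3%, and at the 140 genes of the stronger single-strand peaks it was 24.3% (17.4 to 32.2). The median summit distance was 277 bp for the 177 peaks at a gene with this word and 257.5 bp for the other 538.

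In all, 687 of 19973 protein-coding genes had one of these peaks in the window (3.44%, exact interval 3.19 to 3.70), which is the background for every gene list below. Of these genes, 634 had 1 such peak, 52 had 2, and eel-1, which encodes a HECT-type ubiquitin ligase, had 3. A further reproducible summit of another class lay in the window of 64 of the genes, in 56 cases with a signal of at least 720. Genes known by a sequence name alone, such as C16H3.3, made up 32.0% of the 687 (28.5 to 35.7) and 45.4% of all genes. On the autosomes the share of genes with a peak was 4.16% (3.77 to 4.58) in the central 50% of each chromosome and 2.66% (2.31 to 3.04) in the outer parts, and on X it was 3.11% (2.49 to 3.83). Per Mb of chromosome there were from 4.91 peaks on X to 9.49 on chromosome I.

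The 34 gene lists, which hold 4827 genes in all, had 196 genes with a peak (4.06%), and 491 of the 687 genes were in no list. The exact interval lay wholly above the background for 14 lists and wholly below it for 5, and 3 lists had no gene with a peak. Neighbouring genes can share a summit, lists share genes, and they were chosen with earlier results known, so these are counts and not tests.

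**Figure D4:**
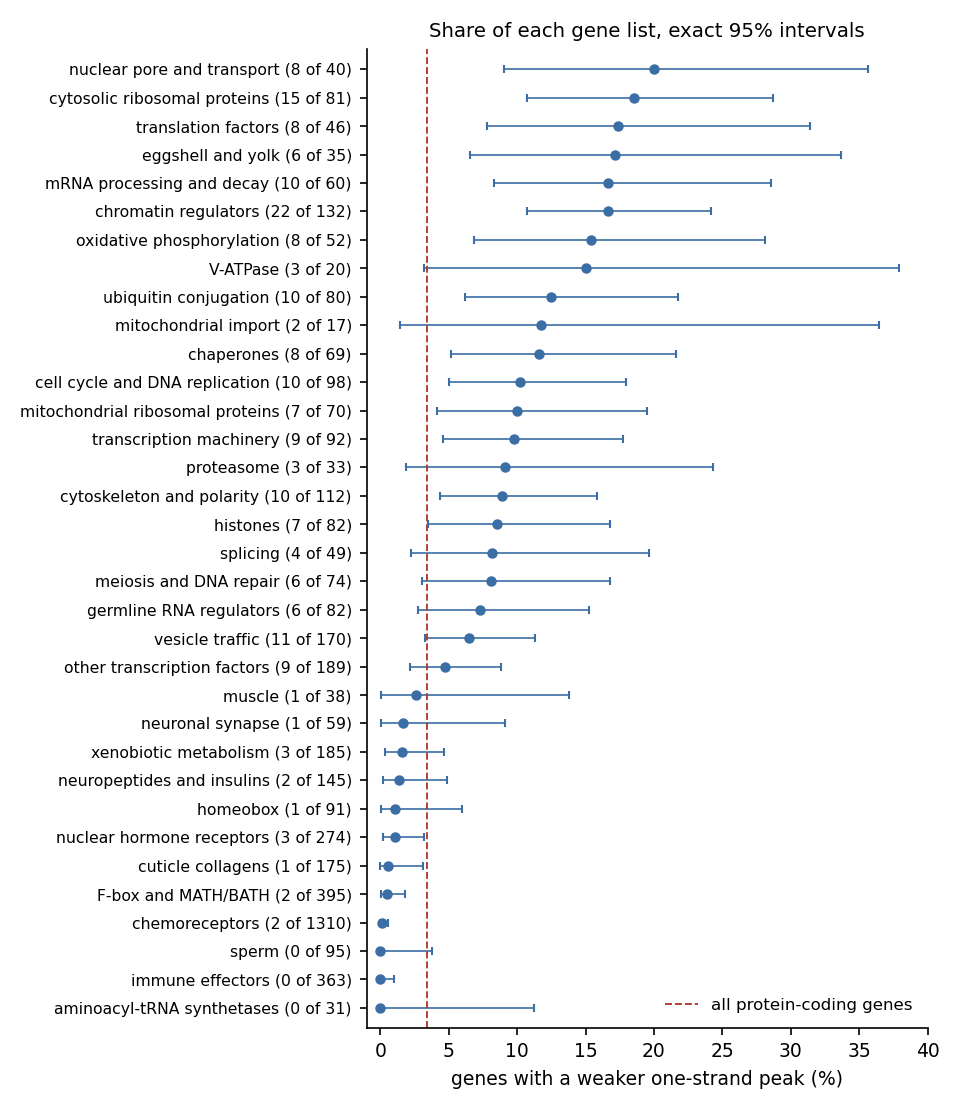
Share of the genes of each list with a peak (x axis, percent; counts in brackets), with exact 95% intervals; the dashed line is the share of all protein-coding genes, 3.44%. Cytosolic ribosomal proteins, nuclear pore genes, chromatin regulators and oxidative phosphorylation lie to the right of the line, and chemoreceptors, F-box genes and immune effectors to the left.

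The gene lists of protein synthesis had exact intervals that all overlapped one another. Of 81 cytosolic ribosomal protein genes, 15 had a peak (18.5%, 10.8 to 28.7), and none of these stood beside a stronger summit. Their median signal was 149. At rps-4 the summit lay 273 bp upstream, with a signal of 224 in replicate 1 and 146 in replicate 2, and at rps-18 it lay 654 bp upstream, with 183 and 143. Replicate 1 was higher at 14 of the 15, and rps-25 was the exception with 34.3 and 48.9. Mitochondrial ribosomal protein genes had a peak at 7 of 70 (exact interval 4.12 to 19.5%), led by mrps-28 and mrpl-23. Those summits lay 998 and 982 bp upstream, at the far edge of the window, and each was within 150 bp of a snoRNA gene. Of 46 translation factor genes, 8 had a peak (17.4%, 7.82 to 31.4). The strongest was eef-1B.2, an elongation factor subunit gene, 137 bp upstream with 251 and 179, followed by eif-2Bdelta, a subunit gene of the exchange factor for eIF2, whose summit stood beside a stronger one. Of 31 aminoacyl-tRNA synthetase genes, 0 had a peak of this class, which allows a share of up to 11.2%. A reproducible summit of any class lay in the window of 7 of the 31, so the 0 holds for this class only.

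Among genes of energy supply and protein turnover, the intervals of oxidative phosphorylation and ubiquitin conjugation lay above the background, and those of mitochondrial import, the V-ATPase and the proteasome held it. Of 52 oxidative phosphorylation genes, 8 had a peak (15.4%, 6.88 to 28.1), 4 of them subunits of cytochrome c oxidase named cox. The median signal of these 8 was 299, against 138 over all 687 genes. At cox-5A, whose window is printed above, the summit lay 276 bp upstream, with 229 in replicate 1 and 189 in replicate 2. Mitochondrial import genes had a peak at 2 of 17 (1.46 to 36.4%), timm-17B.1 and tin-9.1, both beside a stronger summit. V-ATPase genes, which encode the proton pump of lysosomes, had a peak at 3 of 20 (3.21 to 37.9%), with vha-13 strongest at 242 and 180. Ubiquitin conjugation genes had a peak at 10 of 80 (12.5%, 6.16 to 21.8). The deubiquitinase gene otub-1 had 207 in replicate 1 and 187 in replicate 2, and the cullin gene cul-3, beside a stronger summit, had 262 and 117. Of 33 proteasome genes, 3 had a peak (9.09%, 1.92 to 24.3), the strongest at rpn-3 and pas-1. The summit at pas-1 was nearer to another gene, rpoa-12, and 0 of the 3 had a top peak in both replicates.

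Among genes of nuclear transport, RNA handling and transcription, the intervals of all lists but splicing lay above the background. Of 40 nuclear pore and transport genes, 8 had a peak, with an exact interval of 9.05 to 35.6% for the share. They were led by imb-2 and by the nucleoporin gene npp-14, which had 265 in replicate 1 and 455 in replicate 2 and stood beside a stronger summit. Leaving out such peaks left 5 of the 8 genes. Messenger RNA processing and decay genes had a peak at 10 of 60 (16.7%, 8.29 to 28.5), with hrpu-2, an hnRNP U family gene, at 436 and 244 beside a stronger summit, and the exoribonuclease gene xrn-2 at 84.4 and 42 in turn. Only 6 of the 10 had a top peak in both replicates. Splicing genes had a peak at 4 of 49 (8.16%, 2.27 to 19.6), led by the helicase gene mog-4 and the Sm protein gene snr-4. Transcription machinery genes had one at 9 of 92 (9.78%, 4.57 to 17.8), led by the RNA polymerase II subunit gene rpb-7 and the Mediator gene mdt-8, both beside a stronger summit. The summit at mdt-8 lay 959 bp from it, was nearer to Y62F5A.12, and held a run with 60 places in the genome, described below.

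Chromatin regulators formed the largest single count, at 22 of 132 genes (16.7%, 10.7 to 24.1). The share was higher in the lists of nuclear pore, cytosolic ribosomal protein, translation factor and eggshell genes. Of the 22, 16 had a top peak in both replicates, beside 71.5% of all 715 peaks. The strongest was lin-9, a gene of the DREAM complex that represses cell cycle genes. Its summit lay 163 bp upstream, with a signal of 235 in replicate 1 and 220 in replicate 2. Next came lin-13, a zinc finger gene of the synMuv B class, 770 bp upstream with 207 and 175. Also in the list, and named after their values were seen, were lin-36, another synMuv B gene, set-2, the histone H3 lysine methyltransferase gene of the COMPASS complex, and the acetyltransferase gene cbp-1. Their signal was 145 and 87.2 at lin-36, 143 and 106 at set-2, and 185 and 145 at cbp-1, in replicates 1 and 2. Replicate 1 was higher at each of these 5. Histone genes had a peak at 7 of 82, led by his-37 and hcp-3, each beside a stronger summit.

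Among genes of cell division, the germ line and the egg, the intervals of the cell cycle, cytoskeleton and eggshell lists lay above the background, and those of the meiosis and germline RNA lists held it. Cell cycle and DNA replication genes had a peak at 10 of 98 (10.2%, 5.00 to 18%), and 5 of the 10 had a top peak in both replicates. The strongest, rpa-2, a subunit gene of the single-strand DNA binding protein RPA, had 146 in replicate 1 and 90.9 in replicate 2, and hcp-3 followed. Meiosis and DNA repair genes had one at 6 of 74 (8.11%, 3.03 to 16.8), led by fcd-2, the homologue of the Fanconi anaemia gene FANCD2, and rad-54.L2. Germline RNA regulators had one at 6 of 82, a share of 7.32% (2.73 to 15.2), led by the Pumilio family gene puf-9 and by the helicase gene rde-12, whose summit stood beside a stronger one. Eggshell and yolk genes had one at 6 of 35 (17.1%, 6.56 to 33.6). The strongest were egg-5, needed at egg activation, 798 bp upstream beside a stronger summit and an snRNA gene, and egg-1, a receptor gene of the egg surface, 166 bp upstream with 147 and 102. Cytoskeleton and polarity genes had one at 10 of 112 (8.93%, 4.36 to 15.8), led by the dynein regulator nud-1, beside a stronger summit, and by erm-1, which links actin to the membrane and had 223 in replicate 1 and 185 in replicate 2.

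The chaperone list had an interval above the background and the vesicle traffic list one that held it. Chaperone genes had a peak at 8 of 69 (11.6%, 5.14 to 21.6), led by the co-chaperone gene bag-1 at 161 and 104 and the Hsc70 gene hsp-1 at 137 and 125. Vesicle traffic genes had one at 11 of 170 (6.47%, 3.27 to 11.3), led by sec-61.G, a subunit gene of the translocon, at 222 and 179, and vps-60, an ESCRT gene. The following genes were singled out after their values were seen and do not form a list, so as a group they carry no share. They belong to the unfolded protein response, the programme that answers misfolded protein in the endoplasmic reticulum. The transcription factor genes xbp-1 and atf-6 had pooled signals of 195 and 195, and the genes of the lumenal chaperone BiP, hsp-3 and hsp-4, had 239 and 123. In the replicates xbp-1 had 123 and 90.1, atf-6 had 109 and 84.2, hsp-3 had 148 and 96.8, and hsp-4 had 75.2 and 53.0. The sensor kinase gene ire-1 had 82.0 and 35.6, and crt-1, the gene of the lumenal chaperone calreticulin, had 171 and 114. Replicate 1 was higher at all 6, none stood within 500 bp of a stronger summit, and ire-1 was the one without a top peak in both replicates. The window of hsp-4 held a run with 93 places in the genome and shared a run with T22C1.1, in a group described below. The other sensor kinase gene, pek-1, had none of these peaks.

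The 5 lists with intervals below the background were those of chemoreceptors, F-box and MATH/BATH genes, immune effectors, nuclear hormone receptors and cuticle collagens. Of 1310 chemoreceptor genes, 2 had a peak (0.153%, 0.0185 to 0.550). They were sre-23, which had 196 in replicate 1 and 191 in replicate 2, and str-138, which had 213 and 151. Both summits lay more than 600 bp from the gene, and that of sre-23 was within 150 bp of a snoRNA gene. F-box and MATH/BATH genes had a peak at 2 of 395, fbxa-83 and fbxb-58, with the first again near a snoRNA gene. Of 363 immune effector genes 0 had a peak, which allows a share of up to 1.01%, and of 95 sperm genes 0 did, which allows up to 3.81%. A reproducible summit of any class lay in the window of 8 of the 363 and of 2 of the 95. Nuclear hormone receptor genes had a peak at 3 of 274, with nhr-48 and nhr-79 strongest. The collagen gene list had col-63 alone of 175. The lists of xenobiotic metabolism (3 of 185, led by gst-27 and gst-1), neuropeptides and insulins (ins-39 and nlp-40 of 145), homeobox genes (ceh-39 of 91), synapse genes (syd-2 of 59) and muscle genes (unc-112 of 38) had shares below the background with intervals that reached it. Other transcription factor genes had a peak at 9 of 189 (4.76%), led by hlh-11 and ets-6, with an interval of 2.2 to 8.85 that holds the background.

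Some summits lay by genes other than protein-coding ones. Within 150 bp of the summit there was a snoRNA gene for 23 peaks, an snRNA gene for 10, a microRNA gene for 1, a gene of the annotation's general ncRNA class for 77, a lincRNA gene for 5 and a pseudogene for 5. For these peaks the protein-coding gene may not be the nearest gene to the site. No such counts for all promoters or for other classes of peak are given, so an excess cannot be read from them.

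The DNA at the summits was richer in G and C than its surroundings. In the 101 bp windows centred on the summits the mean GC content was 45.4% ± 9.66 (SD over 715 windows), against 35.3% ± 9.01 in windows of the same length centred 250 bp away from the gene and 37.2% ± 8.48 at 250 bp towards it. Windows placed 268 bp before all 19973 genes had 34.4% ± 8.45. In 50 bp bins the peak of GC content was 46.7% for the weaker peaks and 53.7% for the stronger single-strand peaks. From 100 to 150 bp on each side the stronger peaks dipped to 29.4 to 32.8%, while the weaker single-strand ones had 36 to 38.1%. The weaker peaks between promoters on both strands had 31.5 to 33.7% there, so low values were not particular to the stronger peaks. The sharper rise at the stronger peaks and the dips were seen in means over windows, and were not tested.

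Short words written with G, A and C were found near the summits. All words were sought on both strands, and several overlap by letters, so their counts are not separate. Word A, seen in the window of scyl-1, was in 18.5% of the 715 summit windows (exact interval 15.7 to 21.5), in 8.81% and 8.11% of the windows away from and towards the gene, and in 6.19% of windows before all genes. Word B was in 14.7%, against 4.20% and 4.62% in the flanks and 4.17% before all genes. Word C, seen in the window of lin-9, was in 12% of the windows, against 2.52%, 2.1% and 1.80%. On the strand of the gene it read GCGCTC at 9.09% of the summits and GAGCGC at 3.36%. Word D, which the window of sym-4 holds on both strands, was in 12.4%, against 2.94%, 2.52% and 3.33%. The run AGACGCAGA was in 40 summit windows (5.59%) and in 0.731% of windows before all genes.

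Words A to D were among the best ranked of 2080 words of 6 letters, ordered by how much commoner they were at these same summits than in the flanks, so that excess is a description. Of the 12 best ranked words, at least 1 was in 61.7% of the summit windows, in 29.8% and 30.2% of the flanks and in 27.2% of windows before all genes. The share was 60.7% at the 364 weaker peaks between promoters on both strands and 59.3% at the 738 weaker peaks outside promoters, and it was 72.4% at the 134 stronger single-strand peaks. Of the 12 words, only ACGCGC had a higher share at the stronger peaks, with 41.8% against 11.5% at the weaker ones. Words A to D each had a lower share at those stronger peaks than at the weaker ones, with 14.2, 9.70, 7.46 and 9.70%. For each of these words the exact interval at the stronger peaks held the share at the weaker ones. The ranking on the weaker summits also favours the weaker peaks here, so a difference between the classes cannot be read from these shares. Word A was in 13.2% of the windows of weaker peaks between promoters on both strands and in 19.4% of those outside promoters. For word C these shares were 16.8% and 6.64%. Of 10 words listed from general knowledge of promoters, at least 1 was in 62% of the summit windows, in 65.3% and 65.0% of the flanks and in 65.1% of windows before all genes. That share joins words that went either way, and word A is among the 10. The word GGGCGG was in 6.85% of summit windows, against 1.68% and 1.82% in the flanks and 2.14% before all genes. For TTTCGCGC it was 2.52%, against 0.280%, 0.140% and 0.421%. Both CACGTG and TGACGT were also commoner at the summits than in either flank. The TATA box core TATAAA was in 6.15% of summit windows and in 13.1% and 9.65% of the flanks. The AT-rich words were the least common at the summits relative to the flanks, and the part of GC content in these shares was not tested.

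The share of windows with word E differed most between the weaker and the stronger peaks among the words described. Word E was in 88 of the 134 windows of stronger single-strand peaks (65.7%, exact interval 57 to 73.7) and in 50 of the 715 windows of the weaker peaks (6.99%, 5.23 to 9.12). In the flanks of the weaker peaks it was in 4.90% (3.43 to 6.74) and 3.36% of windows, at weaker peaks outside promoters in 14% of windows, and before all genes in 1.73%. This word was picked after the values were seen, and only a description is given. Among the 5 groups of 143 peaks ordered by signal, 14, 16, 8, 5 and 7 windows held it. It was in the windows of atg-16.2, ppfr-1 and imb-2, and 1 of the 50 windows stood beside a stronger summit. The median pooled signal was 174 with the word and 136 without. The related word ACGCGC, one of the 12 best ranked words, was in 41.8% of stronger and 11.5% of weaker windows.

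**Figure D5:**
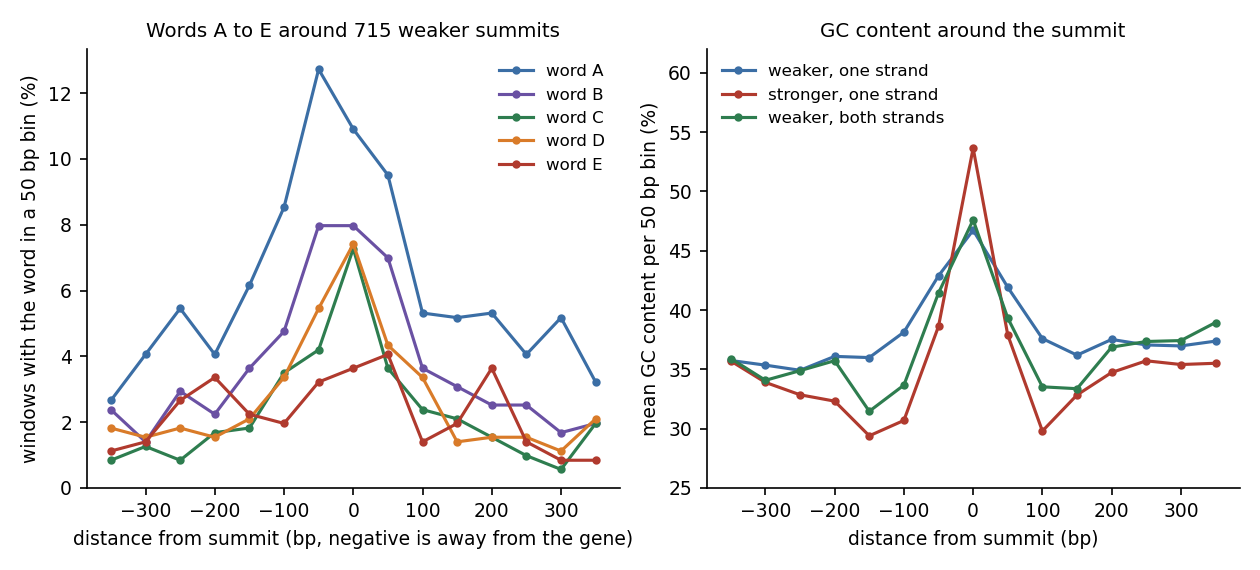
Left, the share of the 715 weaker peaks (y axis, percent) with each word in a 50 bp bin at a given distance from the summit (x axis, bp, negative is away from the gene). Right, the mean GC content (y axis, percent) in the same bins for 3 classes of peak. Words A to D are commonest within 50 bp of the summit, word E stays below 4.1% in every bin, and GC content peaks at 46.7% for the weaker and 53.7% for the stronger single-strand peaks.

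Some of the peaks lay on copies of the same sequence. A run of 20 bases that occurs more than once in the nuclear genome was in 289 of the 715 summit windows (40.4%, exact interval 36.8 to 44.1). It was in 47.4% of the flanks away from the gene, in 38.5% of those towards it and in 48.4% of windows before all genes. A run with 10 or more places was in 62 summit windows (8.67%, 6.71 to 11%), in 8.81% and 5.03% of the flanks and in 10.1% of windows before all genes. The median pooled signal was 138 with a repeated run and 137 without.

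Within that share, 42 summit windows held a run that also occurs in the window of another of these peaks, and they fell into 12 groups. Such sharing is not given for the flanks or for windows before all genes, so an excess at the summits cannot be read from this count. The groups are therefore a description. The largest group had 9 summits, at eel-1 (a pair of them), Y62F5A.12, rps-24, C26B2.7, C09E7.7, npp-6, ttll-4 and oma-2. Y62F5A.12 is annotated with a reverse transcriptase domain, ttll-4 encodes a tubulin polyglutamylase and oma-2 a zinc finger protein of oocyte maturation. All 9 had a top peak in both replicates, beside 71.5% of all 715 peaks. In the windows printed above, the run that reads as CCCCTTTTCG in eel-1 and ttll-4 is on the other strand in Y62F5A.12, and a separate run joins eel-1 with oma-2. The run that most of the group hold, in 7 of the 9 windows, had 84 places in the genome. Of these, 16 (19%) lay within 100 bp of a reproducible summit of any class and 29 (34.5%) within 100 bp of a summit of the pooled relaxed list. The places in the 7 windows are among the 16, so this share is partly fixed by the choice of run. At eel-1, Y62F5A.12 and C26B2.7 a further summit of each promoter shared a run with the other 2 genes, and that run had 60 places. A further group of 6 held the summits of T22C1.1 (a pair of them), sas-7, F13H8.2, hsp-4 and mmab-1, and the run in 5 of these windows had 105 places.

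A group of 4 summits was at npr-15, a neuropeptide receptor gene, inpp-4B, B0205.9 and B0205.1. Their signal was 288 in replicate 1 and 230 in replicate 2 at npr-15, 229 and 152 at inpp-4B, 226 and 161 at B0205.9, and 137 and 111 at B0205.1. Replicate 1 was the higher at all 4. The run that all 4 hold had 8 places in the genome, and 7 of these 8 lay within 100 bp of a reproducible summit and 8 of 8 within 100 bp of a summit of the relaxed list. The places in the 4 windows are among the 7, so this share is partly fixed by the choice of run. For the runs of the other groups of 3 or more summits, the share at a reproducible summit was from 11.7 to 30%. How reads that match several places were aligned is not given in the sources used here, so part of the signal at such copies may belong to another copy, and this was not tested.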

How the data were processed

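ZTF-18 binding was measured in 2 biological replicates of 1 group, and the deposited files are peak lists: a relaxed list for each replicate (26104 and 27612 peaks), a relaxed pooled list and a list of 2465 reproducible peaks from an irreproducible discovery rate (IDR) threshold, which compares peak ranks between replicates. The deposited signal of a peak is the authors' enrichment over a control, in column 7 of each list; its scale, the peak caller and the aligner were not given in the sources used here. A −log10 q-value, deposited by the authors for each peak, is the same for all reproducible peaks and was not used. Read depth is unknown, and intervals cover counting error only.

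Summits were placed on Ensembl release 115 annotation of WBcel235, the ce11 build, and sequences were read from the RefSeq genome of that build. A replicate's value is that of the overlapping peak with the nearest summit. Shares have exact Clopper-Pearson 95% intervals. Features without replication were not tested. Genes were named by rank in both replicates and by the 2 strongest peaks of each list, with every gene of lists of 1 or 2; exceptions are stated. Printed windows were well ranked ones among those with each word or shared run, picked after the values were seen. The peaks and lists were chosen with earlier results of these data known, and some list members were removed after values were seen. The 12 words were ranked among 2080 on the same windows; words E and AGACGCAGA, the replicate matching and the repeat counts were added after seeing the data. Python 3.11.15, numpy 2.4.6, pandas 2.3.3, scipy 1.17.1 and matplotlib 3.10.9 were used, and scripts were tested on simulated peaks.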

Additional observations from a re-analysis of the deposited data

How the results depend on the processing

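Of 53 alternative values for the main results, 43 stayed within set limits and 10 moved. The limits were a factor of 1.5 for counts, and the exact 95% interval of the reported value for shares and the median distance. The number of peaks ranged from 511 to 800 and the number of genes from 484 to 761. The median summit position, -268 bp in the main analysis, was -187.5 bp with a window of 500 bp upstream and -378 bp with 2000 bp, since the window sets the range. The share with a top peak in both replicates, 71.5% in the main analysis, was 61.4% when summits had to lie within 100 bp, 58.2% with an overlap of at least 50% of both peaks, 99.6% against the whole relaxed lists, 37.5% against a top list with 50% as many peaks, and 83.5 to 85.2% when a single replicate was used. It was 66.6% without peaks beside a stronger summit, an alternative chosen after seeing the data. The share of windows with a listed word was 87.7% when the window reached 100 bp to each side, as a longer window holds more words.

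Of 155 gene list counts, 21 moved. Keeping only peaks with a top peak in both replicates left 0 proteasome, 5 chaperone, 6 mRNA processing, 5 cell cycle and 4 histone genes. Leaving out peaks near snoRNA and snRNA genes, also chosen after seeing the data, left 1 chemoreceptor and 1 F-box gene. No paired analysis was possible because there is a single group. Unknown read depth and the lack of a second condition limit every comparison.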
